A study of Mus musculus with 6 samples.

Results

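Zfp451 encodes a zinc-finger protein that attaches the small modifier SUMO to other proteins. In a mouse macrophage experiment with knockdown of the mechanically gated channel Piezo1, its messenger RNA averaged 2.08 times the control level. Zfp451 was picked from that same contrast, by a rule that asked for a consistent rise of this size in all siPiezo1 libraries, so its difference is given below as a description, with no test. It is 1 gene of the 55401 in the deposited table and 1 of the 15959 kept by the filter on low counts, and 1 identifier (ENSMUSG00000042197) carries the symbol.

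The siPiezo1 group held 3 libraries of C57BL/6 bone marrow-derived macrophages transfected with an siRNA against Piezo1. The siNC group held 3 libraries of the same cell type and strain, transfected with a negative-control siRNA. Cells of both groups were then mechanically stretched for 4 h, so stretch is shared by all libraries and unstretched cells were not analysed here. Bone marrow-derived macrophages are primary macrophages grown in culture from marrow precursors. The labels give neither the siRNA sequences nor the age and sex of the donor mice, and they do not say whether replicates are separate cultures or animals. The p-values therefore measure only the spread between these libraries, which may be technical, and in bulk RNA fewer cells of a type and less RNA per cell cannot be told apart.

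SUMO is joined to lysines of target proteins by an activating enzyme (E1), a conjugating enzyme (E2) and ligases (E3), and is removed by SENP proteases. The human counterpart of Zfp451, ZNF451, is a ligase selective for SUMO2 and SUMO3 that extends SUMO chains. It is also known as ZATT, a factor that works with the phosphodiesterase TDP2 to release topoisomerase II trapped on DNA, and as a repressor of SMAD-driven transcription in TGF-beta signalling. Genes of these processes are described below beside it.

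The gene lies on mouse chromosome 1, on the minus strand. The RefSeq window around its start in build GRCm38.p6, chr1:33814546-33814845 (minus strand, 250 bases before to 50 bases after the start), is shown because it holds the annotated start of the gene described here. Capitals mark the GC box letters GGGCGG and the ETS core letters CGGAA, each searched on both strands.

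Zfp451 promoter window: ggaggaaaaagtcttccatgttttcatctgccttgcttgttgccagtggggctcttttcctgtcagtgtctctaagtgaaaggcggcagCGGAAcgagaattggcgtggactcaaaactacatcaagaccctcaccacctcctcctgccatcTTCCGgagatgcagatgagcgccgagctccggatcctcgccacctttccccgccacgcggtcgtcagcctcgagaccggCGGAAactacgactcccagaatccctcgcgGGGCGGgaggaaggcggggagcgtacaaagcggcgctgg

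The window held 1 GC box and 3 ETS cores. At least 1 GC box occurs in 35.7% of the 32851 RefSeq windows of the same length, and at least 1 ETS core in 29.9% of them. The marked motifs share 0 bases. It was 59.7% G and C, against a median of 52.7% over all windows, with 24 CpG dinucleotides against a median of 7. The AP-1 letters TGANTCA and the TATA letters TATAAA, which occur in 7.81% and 13.6% of the windows on either strand, were not found. These are letter matches in 1 window and not measured sites.

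Library totals ran from 61086684 to 75052745 estimated counts, and levels are given in CPM, the standard RNA-seq unit of counts relative to the library total, here with TMM scaling. The library siNC 2 stood apart. Across genes, its log2 CPM gave correlations of 0.938 to 0.951 in the pairs that include it, against 0.958 to 0.969 in the others. Of 9 neutrophil markers, 9 were highest in siNC 2, and their summed level was 594 to 617 CPM in siPiezo1 and 628, 3177 and 674 CPM in siNC 1, 2 and 3. Of 6 proliferation markers, 6 were highest in siNC 2 (288 to 441 CPM summed in siPiezo1, against 241, 581 and 257 CPM in siNC 1, 2 and 3). The 9 macrophage markers summed to 34490 to 37331 CPM in siPiezo1 and 28017 to 35259 CPM in siNC. Of 6 lymphoid markers, Cd3d, Cd3e and Ncr1 were at 0 in every library and the sum was at most 0.238 CPM. The 6 stromal markers summed to 14.1 to 17.1 CPM in siPiezo1 and 9.02 to 15.5 CPM in siNC, and the 4 dendritic cell markers to at most 1.09 CPM. The log2 fold changes below are given also without siNC 2 for genes in which leaving it out turned the sign or moved the value by over 1.5 times.

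Piezo1, the siRNA target, stood at 111, 109 and 113 CPM in siPiezo1 and at 180, 285 and 189 CPM in siNC. On average 51.0% of the siNC level was left, a log2 fold change of -0.97 ± 0.18 (SE), with an adjusted p = 0.744 by edgeR (quasi-likelihood F-test, Benjamini-Hochberg over all genes, here and below). Without siNC 2 it was -0.73 with an edgeR adjusted p of 0.00245, DESeq2 gave an adjusted p of 0.000982 with all libraries, and its sign was negative under each of 13 alternatives. Exons of Ctu2 on the opposite strand cover 24.6% of the exon bases of Piezo1, and whether counting used the strand is not given in the sources used here.

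Zfp451 stood at 40.1, 38.6 and 42.9 CPM in siPiezo1 libraries 1, 2 and 3, against 18.3, 19.9 and 20.2 CPM in siNC libraries 1, 2 and 3. The groups did not overlap: the lowest siPiezo1 library was 1.91 times the highest siNC library. Of the 9 pairs of a siPiezo1 and a siNC library, 6 had a ratio of at least 2, and the highest ratio was 2.34. The means were 40.5 ± 2.18 CPM in siPiezo1 and 19.5 ± 1.01 CPM in siNC (SD, n = 3 each), a log2 fold change of 1.06 ± 0.10 (SE). The value in siNC 2 lay between those of siNC 1 and 3, unlike the marker sums above, and without that library the log2 fold change was 1.07 ± 0.10 (SE). Piezo1 itself was highest in siNC 2, where Zfp451 was not lowest. That is 1 library, and a relation between the levels of these genes was not tested.

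**Figure D1:**
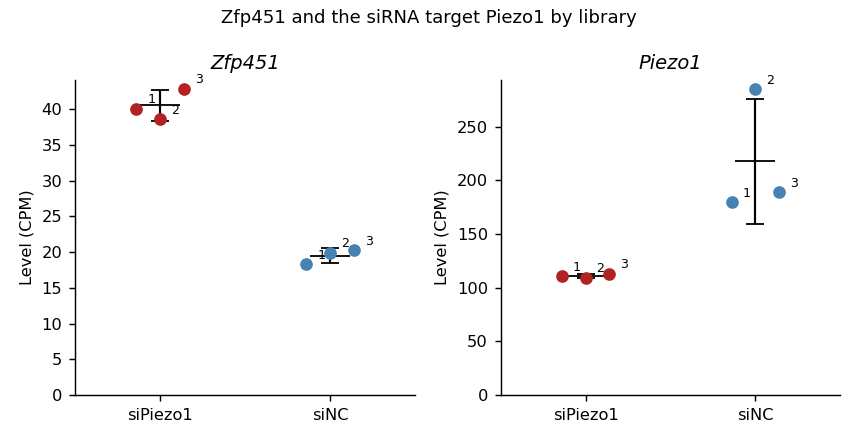
Level in CPM (vertical axis, from 0) of Zfp451 and of Piezo1 in each library, numbered by replicate, siPiezo1 left of siNC; bars are the mean and SD of 3 libraries. Zfp451 lies at 38.6 to 42.9 CPM in siPiezo1 and 18.3 to 20.2 CPM in siNC, and Piezo1 at 109 to 113 CPM in siPiezo1 and 180 to 285 CPM in siNC.

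The deposited counts were 2867, 2909 and 2871 in siPiezo1 and 1114, 1503 and 1354 in siNC, and 1 fragment was worth about 3.82 to 3.86 of them. They therefore stood for about 745, 754 and 750 fragments in siPiezo1 and about 292, 392 and 351 in siNC. Counting alone gives an error of 3.64% to 3.66% in siPiezo1 and 5.05% to 5.85% in siNC. The SD between replicates was 5.38% of the mean in siPiezo1 and 5.20% in siNC. These spreads belong to libraries from which the gene was picked for its consistency, and they are given as a description. Counting error covers neither library preparation nor culture, and reads without molecular identifiers are not independent molecules.

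The measurement is of the whole gene. The GENCODE M21 annotation holds 9 Zfp451 transcripts, of which 4 are protein-coding, 2 are marked for nonsense-mediated decay, 2 are processed transcripts and 1 retains an intron. The longest coding transcripts differ in length, with 3958 and 11876 bases, and the longer one keeps a long stretch that is an intron in the other. A gene-level count does not tell them apart. No other annotated gene overlaps the span of Zfp451 on either strand (0 genes). No transcript of another gene matches it at 95% identity over 200 bases or more.

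Across the whole table, few genes separated the groups as widely in the same direction. Of 10217 genes with at least 5 CPM in 1 of the groups, 23 had a larger log2 fold change than Zfp451, and in 11 of those the groups overlapped. Ranked by the lowest siPiezo1 library over the highest siNC library, Zfp451 came at place 2. Zfp451 was picked for a consistent rise in these same libraries, so a high place in such rankings was built into the choice. In all, 11 of the 10217 genes (0.108%) had such a ratio of 1.5 or more, and the groups did not overlap in this direction for 6.24% of all 15959 genes. The first place went to Gbp10, a guanylate-binding protein gene, at 8.86, 10.3 and 8.50 CPM in siPiezo1 and 2.98, 3.06 and 2.50 CPM in siNC. Its counts are uncertain, since 3131 bases of the far more abundant Gbp6 are 99.2% identical to it.

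Several of the next genes in that ranking are uncertain for the same reason. Gm9824 (ratio 1.80) and Gm10819 (1.70) are near-copies of Pebp1, at 98.9% and 99.1% identity, and Rpl17-ps8 (1.60) is a near-copy of the ribosomal protein gene Rpl17, at 99.7%. Rab19, a small GTPase gene, had a ratio of 1.60 at 6.09, 7.98 and 6.35 CPM in siPiezo1 and 2.75, 3.81 and 3.74 CPM in siNC. Stac2, which encodes an adaptor of voltage-gated calcium channels, had a ratio of 1.59 and stood at 46.5, 43.3 and 48.8 CPM in siPiezo1 and 26.0, 27.2 and 27.0 CPM in siNC. Ly6i, a surface antigen gene of the Ly6 family, also had 1.59, at 146, 134 and 156 CPM in siPiezo1 and 74.9, 36.9 and 84.3 CPM in siNC. Just under 1.5 lay Cd28 at 1.49 and Arfgef3 at 1.47, both named after their values were seen. Every one of these genes shares the 3 siNC and the 3 siPiezo1 libraries with Zfp451.

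**Figure D2:**
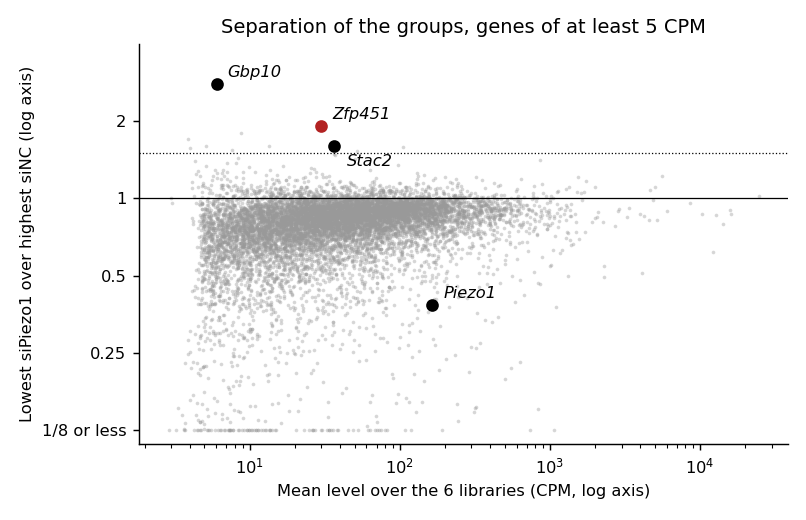
Each grey point is 1 of the genes with at least 5 CPM in a group: mean level over the 6 libraries (horizontal log axis, CPM) against the lowest siPiezo1 library over the highest siNC library (vertical log axis, with the lowest values drawn at the bottom edge). Points above 1 do not overlap between groups, the dotted line marks 1.5, and Zfp451 (1.91) lies below Gbp10 (2.78) and above Stac2 (1.59).

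Genes beside Zfp451 on the chromosome did not pass the test. The question was whether the difference extended to its neighbours. Of the 3 tested genes nearest on each side, 0 of 6 passed the edgeR test at an adjusted p under 0.05. This held with all libraries and without siNC 2. With all libraries, 0 passed by DESeq2 or limma-voom, and 0 had an unadjusted edgeR p under 0.05. Over all genes edgeR then called 0 of 15959 higher (0%) and 1 lower (0.00627%), and 4.93% had an unadjusted p under 0.05. Without siNC 2, Bend6 and Dst, given below, had an unadjusted edgeR p under 0.05, both higher in siPiezo1. Of all genes, 7.54% were then higher and 6.71% lower at that p. Bag2, a co-chaperone gene directly downstream, stood at 4.72, 5.28 and 5.98 CPM in siPiezo1 and 4.15, 7.62 and 4.46 CPM in siNC, a log2 fold change of -0.02 ± 0.28 (SE), and 0.30 ± 0.21 without siNC 2. Dst, which encodes the cytoskeletal linker dystonin, stood at 329, 324 and 324 CPM in siPiezo1 and 291, 356 and 304 CPM in siNC (0.04 ± 0.10, SE, and 0.13 ± 0.05 without siNC 2).

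The other neighbours also overlapped between the groups with all libraries. Bend6, the nearest tested gene upstream, encodes a BEN-domain transcriptional regulator and stood at 2.17, 2.85 and 3.68 CPM in siPiezo1 and 1.02, 5.44 and 1.78 CPM in siNC (0.08 ± 0.61, SE, and 1.04 ± 0.39 without siNC 2). Prim2, a primase subunit gene, had a log2 fold change of 0.12 ± 0.26 (SE), and 0.38 ± 0.20 without siNC 2. Rab23, a small GTPase gene that restrains Hedgehog signalling, had 0.54 ± 0.30 (SE). Gm26788, under 0.4 CPM in every library, shares 653 bases with the far more abundant Dst. Exons of Dst on the opposite strand cover 21.7% of its exon bases, so its count is uncertain.

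**Figure D3:**
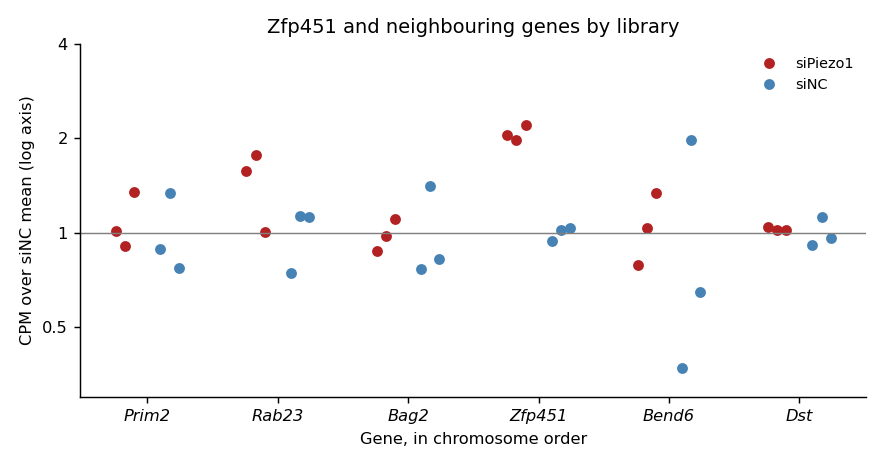
CPM of each library over the siNC mean of the same gene (vertical log axis) for Zfp451 and the 5 nearest tested genes with a level above 1 CPM in every library, in chromosome order; siPiezo1 points are left of siNC points. The siPiezo1 points of Zfp451 lie near 2, apart from its siNC points, while in the other genes the groups overlap.

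None of the 31 listed genes of the SUMO system passed the edgeR test, a list that does not hold Zfp451. These genes, all of which passed the filter on low counts, had a median log2 fold change of 0.01, against -0.01 over all tested genes, and 17 of 31 lay above 0. The edgeR test called 0 of 31, and so did limma-voom and DESeq2. Of all genes, edgeR and limma-voom each called 0% higher and 0.00627% lower, and DESeq2 called 0.29% higher and 0.265% lower. At an unadjusted edgeR p under 0.05 there was 1 gene, or 3.23%, lower in siPiezo1, against 2.41% of all genes lower and 2.52% higher. No gene of the 31 had a log2 fold change of 1 or more in size, and 1 had more than 0.5. Without siNC 2 the median was -0.04 and 0 of 31 passed, where 0.645% of all genes passed higher and 0.45% lower. At an unadjusted edgeR p under 0.05 there were then 2 higher and 2 lower, where 7.54% of all genes were higher and 6.71% lower. A p that misses the threshold does not show that a gene was unaltered, and the SEs ran from 0.07 to 0.79.

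Among the modifiers and the enzymes that load them, 0 of 7 had an unadjusted edgeR p under 0.05. The E1 subunit genes Sae1 and Uba2 had log2 fold changes of 0.01 ± 0.11 and -0.09 ± 0.13 (SE), and of 0.13 and 0.04 without siNC 2. Sumo3, one of the modifiers that human ZNF451 prefers, stood at 151, 213 and 222 CPM in siPiezo1 and 142, 108 and 185 CPM in siNC, with overlap (0.43 ± 0.23, SE, and 0.25 ± 0.23 without siNC 2).

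Sumo2, the other preferred modifier, is uncertain. Its level varied between replicates of the same group, with 44.0, 85.7 and 11.3 CPM in siPiezo1 and 43.6, 9.91 and 43.6 CPM in siNC, and the log2 fold change was 0.54 ± 0.79 (SE). It was 0.11 without siNC 2, -0.23 without siPiezo1 2 and 1.001 without siPiezo1 3, so that its sign rests on siPiezo1 2. Transcripts of 11 other annotated genes match it at 95% identity over 200 bases or more. Rwdd3, an enhancer of SUMO conjugation, was near 1 CPM and had -0.20 ± 0.60 (SE), and 0.03 ± 0.67 without siNC 2.

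The other E3 ligases had log2 fold changes of -0.30 to 0.17, and 9 of 13 lay above 0 (median 0.06, and -0.04 without siNC 2). The PIAS family, the classical SUMO ligases, had 0.06 ± 0.13 for Pias1, 0.12 ± 0.12 for Pias2, 0.08 ± 0.17 for Pias3 and -0.04 ± 0.09 for Pias4 (SE). Without siNC 2 these were -0.07 for Pias1, 0.23 for Pias2, -0.06 for Pias3 and -0.01 for Pias4, so that Pias1 and Pias3 turned their sign. Pias1 stood at 80.9, 83.9 and 74.8 CPM in siPiezo1 and 84.5, 62.5 and 82.4 CPM in siNC. Ranbp2, the ligase of the nuclear pore, had -0.10 ± 0.08 (-0.04 without siNC 2), and Trim28, a corepressor of zinc-finger proteins with its own ligase activity, had 0.09 ± 0.08 (SE). Nsmce2, a ligase of the SMC5/6 complex, had -0.17 ± 0.15 (SE). In all 13 the groups overlapped.

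**Figure D4:**
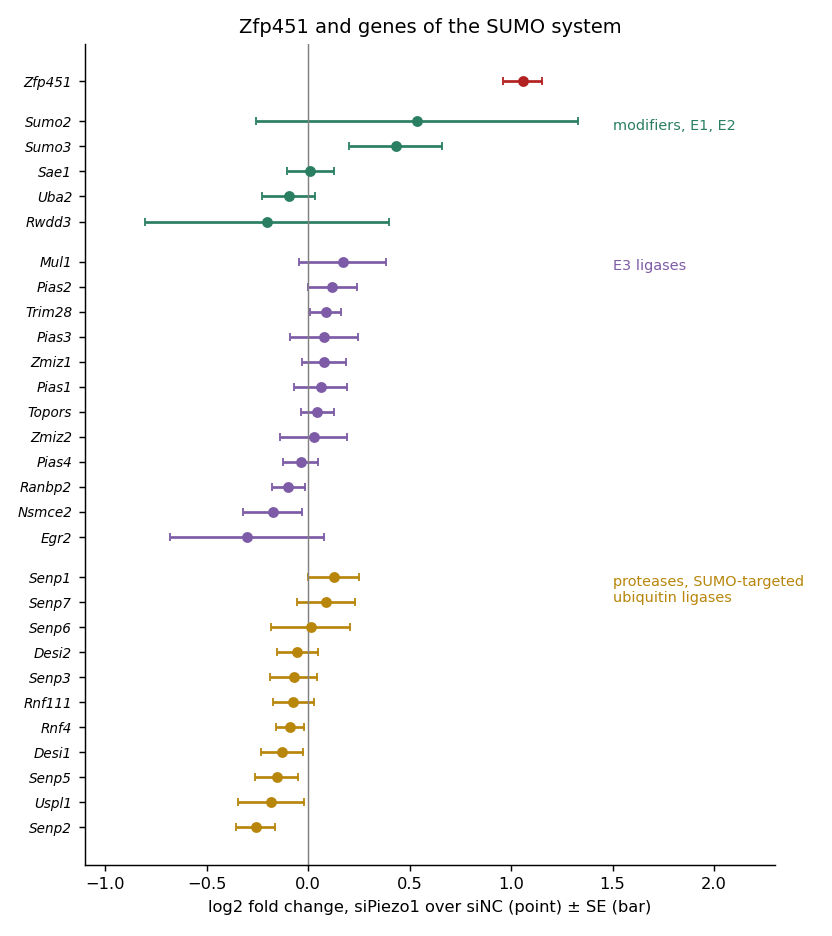
Log2 fold change of siPiezo1 over siNC (horizontal axis, points) with its SE (bars) for Zfp451 and genes of the SUMO system, grouped by role. Zfp451 lies at 1.06, the E3 ligases between -0.30 and 0.17, and Sumo2 has the widest bar (0.54 ± 0.79).

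Per unit of length, Zfp451 was among the less abundant ligase transcripts. With its 3958-base transcript it averaged 10.2 ± 0.551 CPM per kb in siPiezo1 and 4.92 ± 0.256 CPM per kb in siNC (SD, n = 3 each), and among 14 ligase genes, the others taken at their longest coding transcript, it came at place 9 in siPiezo1 and at place 12 in siNC. With the 11876-base transcript it averaged 3.41 ± 0.184 CPM per kb in siPiezo1 and 1.64 ± 0.0853 CPM per kb in siNC, and came at place 13 in both groups. The order thus depends on which transcript was present. On the shorter length its siPiezo1 range of 9.76 to 10.8 CPM per kb overlapped those of Mul1 (lowest library 8.69, mean 9.35) and Nsmce2 (8.09 to 10.5). Its siNC range of 4.63 to 5.12 CPM per kb overlapped that of Pias3 (4.31 to 5.85). Zmiz2, at 44.2 CPM per kb in siPiezo1 and 43.4 in siNC, led the list.

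Genes that undo or read SUMO did not pass the test either. Of 11 SUMO protease and SUMO-targeted ubiquitin ligase genes, 3 lay above 0 and the median was -0.07 (-0.13 without siNC 2). Senp2, a SUMO protease, had the smallest p of the list. It stood at 63.8, 52.9 and 53.7 CPM in siPiezo1 and 68.9, 67.0 and 67.9 CPM in siNC, so that each siPiezo1 library was below each siNC library, as for 5.65% of all genes. Its log2 fold change was -0.26 ± 0.10 (SE), with an unadjusted p of 0.0336 and an adjusted p of 0.978 by edgeR. Senp6 and Senp7, which trim SUMO2 and SUMO3 chains, had 0.01 ± 0.19 and 0.09 ± 0.14, and Senp1 had 0.13 ± 0.13 (SE). Without siNC 2 Senp6 had 0.22 and Senp1 had 0.26. Rnf4 and Rnf111, ubiquitin ligases that bind SUMO chains, had -0.09 ± 0.07 and -0.07 ± 0.10 (SE), and Rnf111 had -0.15 without siNC 2.

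PML bodies are nuclear structures assembled through SUMO. Of 10 listed genes, 8 lay above 0, against 7660 of all 15959 tested genes. The median was 0.10, and 0.06 without siNC 2. By edgeR, DESeq2 or limma-voom 0 passed the test over all genes, where edgeR and limma-voom each called 0% higher and 0.00627% lower. DESeq2 called 0.29% of all genes higher and 0.265% lower. At an unadjusted edgeR p under 0.05 there was 1 of 10 higher, against 2.52% of all genes. This was Atrx, a chromatin remodeller, at 203, 208 and 215 CPM in siPiezo1 and 165, 191 and 185 CPM in siNC (0.21 ± 0.08, SE, edgeR adjusted p = 0.978), without overlap, as for 6.24% of all genes. Pml, the scaffold of the bodies, stood at 67.0, 84.9 and 61.2 CPM in siPiezo1 and 68.4, 39.7 and 61.3 CPM in siNC (0.33 ± 0.22, SE, and 0.13 without siNC 2). Hira, a histone chaperone, had 0.15 ± 0.10 and Morc3 had -0.10 ± 0.09 (SE, and -0.17 without siNC 2). Without siNC 2, 1 gene (Atrx) was higher and 1 (Morc3) lower at an unadjusted edgeR p under 0.05. Of all genes, 7.54% were then higher and 6.71% lower.

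Genes of topoisomerase II repair, the process of ZATT, did not pass the test. Of 16 genes, 9 lay above 0 with a median of 0.01, and 0 passed by edgeR, DESeq2 or limma-voom. Over all genes edgeR and limma-voom each called 0% higher and 0.00627% lower, and DESeq2 called 0.29% and 0.265%. With so few calls over all genes, 0 of 16 says little about this list. With all libraries, 0 had an unadjusted edgeR p under 0.05, against 4.93% of all genes. Without siNC 2 the median was 0.07, and 2 genes were higher and 0 lower at that p. Of all genes, 7.54% were then higher and 6.71% lower. Tdp2, the phosphodiesterase that human ZNF451 assists, stood at 14.7, 15.2 and 13.9 CPM in siPiezo1 and 14.2, 16.1 and 13.7 CPM in siNC (-0.01 ± 0.12, SE, and 0.06 ± 0.12 without siNC 2). Top2b, the topoisomerase II of non-dividing cells, stood at 102, 108 and 105 CPM in siPiezo1 and 107, 89.6 and 114 CPM in siNC (0.02 ± 0.10, SE, and -0.08 ± 0.06 without siNC 2), with 12.3% of its exon bases under Rarb on the opposite strand.

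Top2a, the form of dividing cells, was highest in siNC 2. It stood at 111, 142 and 168 CPM in siPiezo1 and 91.9, 233 and 94.3 CPM in siNC (0.01 ± 0.38, SE). Without siNC 2 its log2 fold change was 0.59, with an adjusted p of 0.234 in the edgeR test. The 6 proliferation markers given above were also highest in siNC 2, and their part in this value was not tested. Of the end-joining and damage-sensing genes, Rad50 stood at 55.7, 57.9 and 56.9 CPM in siPiezo1 and 51.6, 51.4 and 49.1 CPM in siNC (0.16 ± 0.07, SE, edgeR unadjusted p = 0.0639), without overlap, as for 6.24% of all genes. Lig4 had 0.23 ± 0.17, Atm had 0.13 ± 0.10 (0.09 without siNC 2) and Trp53bp1 had -0.32 ± 0.22 (SE).

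The TGF-beta and SMAD genes, whose output ZNF451 is known to repress, had a median near 0. Of 29 listed genes 27 passed the filter on low counts, which the ligand genes Tgfb2 and Tgfb3 did not, 13 lay above 0, and the median was -0.001. The lowest log2 fold change was that of Id1, a target of the BMP branch named after its values were seen, at 0.601, 2.18 and 1.29 CPM in siPiezo1 and 1.12, 10.3 and 0.478 CPM in siNC (-1.55 ± 1.12, SE, and 0.76 ± 0.64 without siNC 2). None passed the edgeR test with all libraries, nor with DESeq2 or limma-voom (0 of 27). Among all genes edgeR and limma-voom each called 0% higher and 0.00627% lower, and DESeq2 called 0.29% and 0.265%. In the list 1 of 27 (3.70%) had an unadjusted edgeR p under 0.05, against 4.93% of all genes. Without siNC 2 there were 3 higher and 4 lower at that p, where 7.54% of all genes were higher and 6.71% lower. The gene with all libraries was Smurf2, a ubiquitin ligase that limits TGF-beta receptors, at 56.7, 53.8 and 55.8 CPM in siPiezo1 and 60.5, 63.4 and 66.0 CPM in siNC (-0.19 ± 0.08, SE, edgeR adjusted p = 0.978). Tgfb1, the ligand, stood at 264, 269 and 258 CPM in siPiezo1 and 283, 297 and 298 CPM in siNC (-0.15 ± 0.07, SE). Smad6, an inhibitory SMAD, had 0.29 ± 0.15 (SE).

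The values of 2 other Id genes also depended on siNC 2. Id3 stood at 7.39, 9.25 and 8.30 CPM in siPiezo1 and 3.21, 7.33 and 4.56 CPM in siNC (0.72 ± 0.32, SE, and 1.09 ± 0.23 without siNC 2). Id2 stood at 122, 132 and 132 CPM in siPiezo1 and 90.9, 136 and 91.4 CPM in siNC (0.28 ± 0.17, SE). Without siNC 2, Id2 was the 1 gene of the list past the threshold, where 0.645% of all genes were called higher and 0.45% lower, at a log2 fold change of 0.49 (edgeR adjusted p = 0.0151). It was named after its values were seen.

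The 324 other tested genes with a Zfp number, most of them zinc-finger genes, had a median log2 fold change of 0.04 and 189 lay above 0. The edgeR test, DESeq2 and limma-voom each called 0 of them. In the whole table edgeR and limma-voom each called 0% higher and 0.00627% lower, and DESeq2 called 0.29% and 0.265%. At an unadjusted edgeR p under 0.05 there were 6 higher and 4 lower, or 3.09%, against 4.93% of all genes. Of the 212 with at least 5 CPM in a group, Zfp451 included, 2 had a larger log2 fold change in size, both lower in siPiezo1 and both named after their values were seen. Zfp395 stood at 2.24, 3.11 and 0.822 CPM in siPiezo1 and 6.55, 3.78 and 5.26 CPM in siNC (-1.34 ± 0.49, SE). Zfp788 stood at 3.05, 2.88 and 2.75 CPM in siPiezo1 and 10.1, 3.86 and 4.46 CPM in siNC (-1.09 ± 0.39, SE). The SE of Zfp451 was 0.10. Zfp451 was picked for a consistent rise of this size, so a small SE and a high place here were built into the choice.

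Genes with the most similar pattern were sought by Pearson's r of log2 CPM over the 6 libraries, among 9399 genes of at least 5 CPM on average. Because the libraries form 2 groups, a high r goes with a clean separation of them, and the points share libraries and scaling. An r of 0.95 or more was reached by 32 genes and -0.95 or less by 29. The 5 most similar were Stac2 (r = 0.998), Chmp5, a subunit of the membrane-remodelling ESCRT machinery (0.995), Spice1, a centriole protein gene (0.988), Osbpl3, an oxysterol-binding protein gene (0.987), and Arf1, a GTPase of the Golgi (0.987). Their size differed widely: log2 fold changes were 0.79 ± 0.09 for Stac2, 0.45 ± 0.08 for Osbpl3, 0.45 ± 0.14 for Spice1, 0.23 ± 0.07 for Arf1 and 0.14 ± 0.07 for Chmp5 (SE).

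The most opposite patterns belonged to genes lower in siPiezo1. Fos, an AP-1 transcription factor gene, had r = -0.990 and stood at 40.2, 43.4 and 40.0 CPM in siPiezo1 and 64.0, 57.4 and 60.9 CPM in siNC (-0.56 ± 0.09, SE). Copz1, a subunit of the COPI vesicle coat, had r = -0.989 and -0.30 ± 0.07 (SE). Slc31a2, a copper transporter gene, Sub1, a transcriptional coactivator gene, and Ado, a thiol dioxygenase gene, had r of -0.988, -0.986 and -0.984. Piezo1 had r = -0.889 with Zfp451, smaller in size than these. All 10 were chosen for their likeness to a gene picked from this contrast, so their differences are given without a test.

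**Figure D5:**
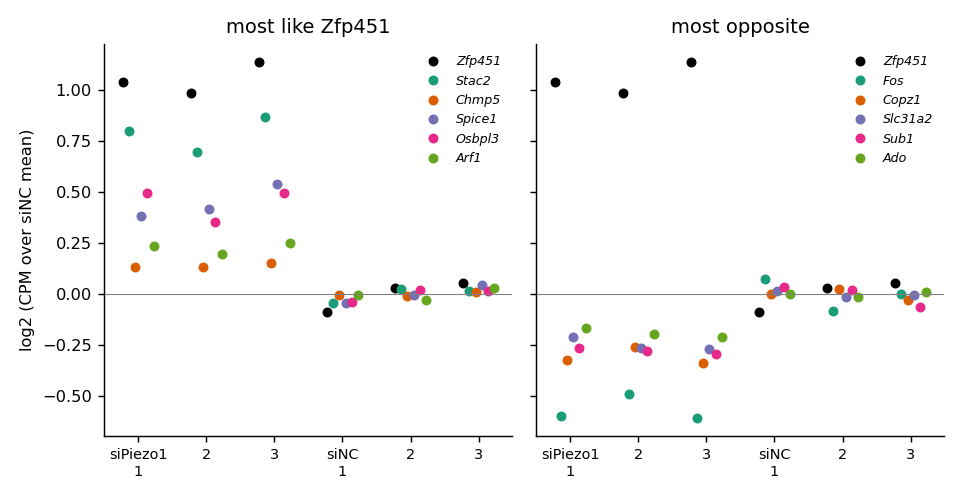
Log2 of CPM over the siNC mean of the same gene (vertical axis) in each library, siPiezo1 left of siNC, for Zfp451 (black) and the 5 genes with the highest r (left panel) or the lowest r (right panel). Zfp451 lies near 1 in the siPiezo1 libraries, farther from 0 than the other 10 genes, of which Stac2 comes closest at a fitted 0.79.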

How the data were processed

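RNA was measured by poly(A) sequencing in 6 libraries of mouse macrophages, 3 siPiezo1 and 3 siNC, grouped by sample title. Per the labels' protocols, the second strand was marked with dUTP and sequencing was paired-end. Per the submitters' processing notes, cutadapt 1.9, HISAT2 2.0.4, StringTie 1.3.4d, DESeq2 and edgeR were used and the build was GRCm39; not given in the sources used here are what each did, the annotation and the strand setting. The authors deposited estimated counts, in whole numbers and unscaled, for each Ensembl gene; the planned design assumed counts, and the same test was used. Low values repeat every 3.82 to 3.86 counts, which sets the fragment numbers.

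Symbols came from GENCODE M21, which matched 55141 of 55401 identifiers. Genes were filtered with filterByExpr and scaled by TMM (0.988 to 1.028), then tested with edgeR 4.0.16 (R 4.3.3) by the robust quasi-likelihood test with group as the only term and Benjamini-Hochberg adjustment over 15959 genes at 0.05. CPM used the TMM factors. DESeq2 1.42.0 and limma-voom (limma 3.58.1) were alternatives, beside DESeq2 size factors, library totals alone, no filter, the replicate block, counts divided by 4, and each library left out. The test was checked on simulated counts with 3 libraries in each group. It called 4.69% of genes altered 1.5-fold, 42.2% of those altered 2-fold and 78.8% of those altered 4-fold. Of the genes it called, 3.53% were unaltered in the simulation. The simulated counts took the spread fitted to genes of like level and had no library apart like siNC 2. The shares called may therefore be higher than in these data. Genes that did not pass here may thus still have differed between the groups. Levels per kb used GENCODE M21 transcript lengths; promoter windows are RefSeq's.

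The gene and the lists were chosen with earlier results of these data known. Named genes were Zfp451, Piezo1, the SUMO lists (some of their members, although counted, are not reported here), the 4 members of each other list with the smallest p, Tdp2, Top2a and Top2b, the 3 nearest tested genes on each side, the 5 genes with the highest and the 5 with the lowest r, and up to 8 genes with a separation of at least 1.5; others are said to be named after their values were seen. Levels per kb and promoter motifs were added after the data were seen.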

Additional observations from a re-analysis of the deposited data

How the results depend on the processing

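The log2 fold change of Zfp451 stayed between 1.01 and 1.09 when each library was left out, and between 1.05 and 1.06 under the other alternatives. Zfp451 was picked for a consistent rise in these same libraries, so this narrow range is a description and no independent support. No pairing by replicate number was seen. Deviations from the group means of same-numbered libraries correlated at 0.03, -0.06 and -0.09, and 0 of 6 libraries correlated best with their own number. With 3 libraries per group, these values cannot exclude pairing. With the replicate block the value was 1.06 and the number of genes called was 0, against 1 without it.

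The number of genes called over the whole table depended strongly on the setting. It was 0 with library totals alone and 88 with the DESeq2 test, and it ranged from 0 to 180 when libraries were left out: 180 without siNC 2, 5 without siPiezo1 3, 1 without siPiezo1 2 and 0 without each of the others; the cause was not tested. For list medians, leaving out libraries gave -0.017 to 0.10 for the SUMO modifiers, E1 and E2, -0.044 to 0.087 for the E3 ligases, -0.13 to -0.03 for the proteases, 0.06 to 0.13 for PML bodies, -0.023 to 0.073 for topoisomerase II repair and -0.028 to 0.012 for TGF-beta and SMAD genes. The last was 0.023 with limma-voom, against -0.001; the cause was not tested. Over 74 other named genes and 13 alternatives, 939 values stayed on their side of the threshold within the spread between replicates, 3 moved beyond it (Top2a and Bend6 without siNC 2, Zfp788 without siNC 1), and 19 passed the threshold where the edgeR test of all libraries did not, all by DESeq2 or without siNC 2. Depth limits genes near 1 CPM, such as Rwdd3.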
